A study of Arabidopsis thaliana with 12 samples.

Results

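Transcript levels after the return of light were examined in flu1-1 ex1 seedlings of Arabidopsis thaliana, in all 6 libraries of that line out of the 12 in the series. They comprise 3 libraries from seedlings kept in darkness for 4 h and 3 from seedlings given 1 h of light after the 4 h of darkness. The libraries were chosen by line and treatment as their descriptions give them, and all 27655 genes of the deposited table were compared. Seedlings were 6 days old and had grown in continuous light at 22 °C after 2 days at 4 °C. Both groups carry the flu1-1 allele of FLU and the ex1 mutation of EXECUTER1. The other line of the series, flu1-5 ex1, carries another flu allele with ex1 and was treated alike, again with 3 libraries a group. The genotype field of the labels reads flu1-1/ex1 for all 12 libraries, so the lines were told apart by the library descriptions. Every group carried a flu allele and ex1, and no seedlings were left in darkness for the further 1 h. Effects of light, of singlet oxygen and of elapsed time therefore cannot be told apart. About 100 seedlings went into each replicate per the file headers. The labels do not say that replicates were grown apart, and the p-values then measure only how far these samples vary, which may be technical variation.

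FLU is a chloroplast protein that holds back the synthesis of protochlorophyllide, a chlorophyll precursor, in darkness. In flu mutants the precursor accumulates in the dark and passes the energy of absorbed light to oxygen, which forms singlet oxygen in the plastid. EXECUTER1 is a chloroplast protein required for much of the nuclear response to that singlet oxygen. Independently of flu, light ends the starvation programme that plants start in darkness and sets off photomorphogenic transcription.

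The deposited values are TPM, transcript abundances that scale each library to a common total and correct for transcript length. Library totals were 931193 to 935223 TPM and 17660 to 18072 genes stood at 1 TPM or more. TPM holds no read number, so depth is unknown. Across genes, Pearson r was 0.993 to 0.994 between libraries of one group and 0.884 to 0.888 between groups. The first principal component, with 92.7% of the variance, separated light from dark. The second, with 2.22%, set library 3 of each group apart from the others. Library 3 also had the highest share of TPM from chloroplast genes in each group, 2.87% against 2.06% and 2.01% in dark and 1.71% against 1.35% and 1.36% in light. The counts below without both of these libraries are given in the closing section. Leaf markers were abundant, with RBCS1A, the small subunit of Rubisco, at 16117 ± 565 TPM in darkness and 15681 ± 251 TPM after light (SD, n = 3). Of 5 root markers, COBL9, EXPA7 and RHD6, which mark root hairs, were under 1 TPM in every library, and the root list summed to 859 ± 6.75 TPM in darkness and to 984 ± 19.8 TPM after light, nearly all of it from PYK10. The flower markers AG and AP3 were near 0 TPM. The seed storage gene CRA1 fell from 8.58 ± 0.391 TPM to 2.83 ± 0.813 TPM, and the other seed markers OLEO1 and SESA1 stayed low. The part of seed or root RNA in the results below was not tested. The tissue was bulk seedlings, so fewer cells of a type and less RNA per cell cannot be told apart. FLU (AT3G14110) stood at 197, 184 and 189.6 TPM in dark libraries 1 to 3 and 193, 189.9 and 189.9 TPM in light libraries 1 to 3, with overlapping groups (adjusted p = 0.895). The EXECUTER1 transcript rose from 40.1 ± 2.64 TPM to 51 ± 1.81 TPM and that of its relative EX2 fell from 69.3 ± 2.75 TPM to 57 ± 1.91 TPM. These levels say nothing of the mutated proteins.

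Most measurable transcripts differed between light and dark libraries. Genes averaging 1 TPM or more were compared on log2(TPM + 1) with limma, with p-values adjusted by Benjamini-Hochberg over all 18042 genes tested and a threshold of 0.05. On this scale the change of low genes is understated. A gene averaging under 1 TPM in either group passed the filter only through the other group, so its direction was set in advance. Among rises below this holds for HSFA2, AT2G27420, GPT2, MYB111, ELIP1 and CYP707A2, among others. Among falls it holds for HRS1, AT3G20395, DFR, BGLU30 and QQS, among others. In all, 72.6% of tested genes were called, 44% higher and 28.6% lower in light. At least 2-fold changes were called for 18.3% of genes, 11.7% higher (2102 genes) and 6.61% lower (1193 genes). After quantile normalization the split of all called genes moved from 7942 higher and 5155 lower to 6386 higher and 6751 lower. The median log2 change of all genes was 0.12 before and -0.024 after it. Small changes therefore hold only relative to other genes. The 2-fold counts also moved, to 1638 higher and 1532 lower after quantile normalization and to 1203 and 714 with a pseudocount of 5. A change of at least 4-fold was called higher for 473 genes and lower for 273. Changes of at least 16-fold were more uneven, with 59 genes higher and 10 lower. The dark and light libraries did not overlap in 75.9% of tested genes. The gene lists below were chosen with earlier results of these data known. Their counts beside these shares therefore describe the lists and are not a test.

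**Figure D1:**
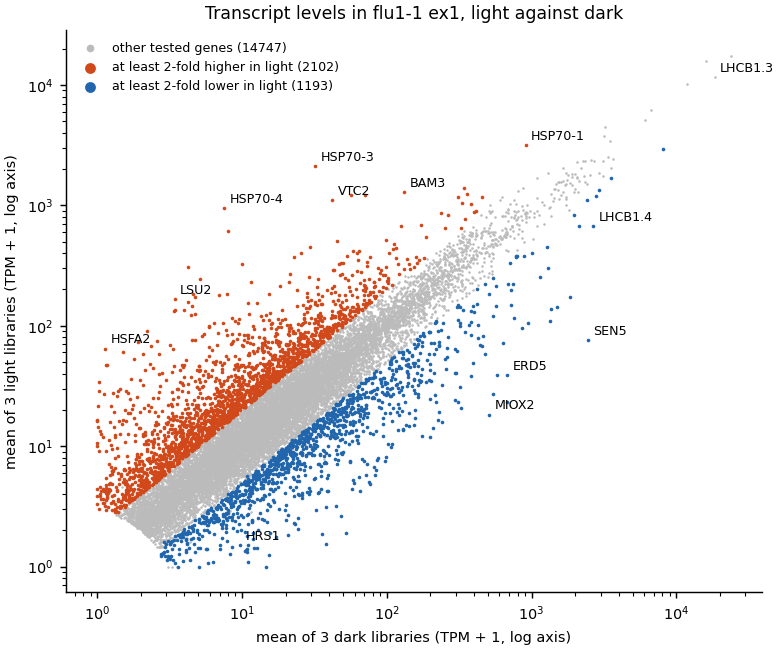
Mean level of each tested gene in the 3 dark libraries (horizontal axis) and the 3 light libraries (vertical axis), as TPM + 1 on log axes. The 2102 genes at least 2-fold higher in light reach farther from the diagonal at low dark levels, with HSP70-4 and HSFA2 among them, whereas SEN5, ERD5 and MIOX2 lie far below it at high dark levels.

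The 10 largest gains and the 10 largest losses in TPM included many genes that were abundant in both states. Chaperones made up 5 of the 10 largest gains, and HSP70-1 (AT5G02500), the main cytosolic HSP70, rose from 912 ± 3.66 TPM to 3140.2 ± 46.5 TPM. HSP70-3, HSP90.3, HSP90.2 and HSP70-4 also stood among the 10. VTC2 (AT4G26850), which catalyses the committed step of ascorbate synthesis, stood at 41.3, 40.7 and 40.7 TPM in dark libraries 1 to 3 and 1093, 1109.8 and 1087 TPM in light libraries 1 to 3, a log2 change of 4.71 (SE 0.025, adjusted p = 1.06e-12). The nitrilase gene NIT1 (AT3G44310) rose from 357 ± 13.7 TPM to 1236 ± 10.2 TPM and RBCS1B (AT5G38430), another Rubisco small subunit, from 3213 ± 106 TPM to 4466 ± 111 TPM. Among the 10 largest losses were 5 genes of light-harvesting proteins, led by LHCB1.3 (AT1G29930), which fell from 18395 ± 264 TPM to 11520.4 ± 193 TPM. SAG21 (AT4G02380), a late-embryogenesis-abundant protein induced in senescing and dark-treated leaves, fell from 1837 ± 46.8 TPM to 173 ± 10.5 TPM. The gene with the highest level of all, AT2G01021, which RefSeq describes only as an uncharacterized protein, stood at 23688 ± 1216 TPM in darkness and 17447 ± 1380.1 TPM after light. Its change of -0.44 on the log2 scale, and that of RBCS3B (AT5G38410) of -0.22, lost their calls after quantile normalization.

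Of the 12 largest rises by log2 change, 8 were those of heat shock proteins or of the heat shock factor HSFA2. Heat shock proteins bind unfolding proteins: small heat shock proteins hold them, HSP70 and HSP90 refold them with co-chaperones, and HSP100 proteins pull aggregates apart. Heat shock factors are the transcription factors that activate their genes. Of 18 tested heat shock factors and coregulators, 10 rose and 3 fell, 5 and 1 of them at least 2-fold, beside 44% and 28.6% of all genes and 11.7% and 6.61% at least 2-fold. The median log2 change was 0.49 against 0.12 over all genes. HSFA2 (AT2G26150), an inducible factor that sustains the heat response, stood at 0.0913, 0 and 0.327 TPM in dark libraries 1 to 3 and at 71.7, 57.8 and 60.3 TPM in light libraries 1 to 3, a log2 change of 5.82 (SE 0.12, adjusted p = 1.04e-09). All 3 light values lay above every dark value. Dark library 2 listed it at 0. With a dark mean under 1 TPM, HSFA2 passed the filter only through its light level, so its direction was set in advance. MBF1C (AT3G24500), a coactivator needed for heat tolerance, rose from 5.98 ± 0.505 TPM to 179 ± 11 TPM. DREB2A (AT5G05410), an activator shared by drought and heat responses, rose from 2.28 ± 0.282 TPM to 27.3 ± 1.22 TPM, while HSFB2B (AT4G11660) and HSFB1 (AT4G36990), which repress transcription, rose from 4.32 ± 0.0596 TPM to 30.1 ± 0.827 TPM and from 8.26 ± 0.25 TPM to 26.9 ± 1.03 TPM. The constitutive HSFA1 factors changed less, with HSFA1D at a log2 change of 0.68 and HSFA1A at 0.13 (adjusted p = 0.268). HSFA3 (AT5G03720), a factor that acts downstream of DREB2A, fell from 11.4 ± 0.623 TPM to 5.03 ± 0.37 TPM.

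Promoters of HSFA2 and of the small heat shock gene HSP17.4 are shown because their upstream sequence holds the binding motif of heat shock factors. Each line gives the 250 bases before the gene start of the RefSeq annotation of TAIR10.1, 5′ to 3′ on the strand of the gene. Capitals mark matches to the heat shock element, which is GAA, any pair of bases, TTC, any pair of bases and GAA, searched on both strands. The HSFA2 sequence is chr2:11135374-11135623, plus strand, and that of HSP17.4 is chr3:16984868-16985117, minus strand.
HSFA2: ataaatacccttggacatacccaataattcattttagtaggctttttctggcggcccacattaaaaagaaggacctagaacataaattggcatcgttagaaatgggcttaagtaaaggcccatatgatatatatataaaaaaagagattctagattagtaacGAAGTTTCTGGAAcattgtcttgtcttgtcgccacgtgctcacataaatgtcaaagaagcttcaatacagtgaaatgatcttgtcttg
HSP17.4: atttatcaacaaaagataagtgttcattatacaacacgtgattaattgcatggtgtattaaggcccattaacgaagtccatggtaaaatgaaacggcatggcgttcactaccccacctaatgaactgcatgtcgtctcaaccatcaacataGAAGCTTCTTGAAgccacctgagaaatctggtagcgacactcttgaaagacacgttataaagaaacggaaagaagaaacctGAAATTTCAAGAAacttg
The element begins 88 bases before the annotated start in HSFA2 and at 99 and 18 bases in HSP17.4. It was present in 0.419% of the 17914 promoters of tested genes and in 0.856% of those of genes at least 2-fold higher and 0.504% of those at least 2-fold lower. Both promoters were chosen for holding it, and most heat shock genes did not hold it in this window. It was in 2 of 10 promoters of cytosolic small heat shock genes, 3 of 18 of heat shock factors and coregulators, 0 of 3 of organelle small heat shock genes, 0 of 21 of larger chaperones and 0 of 12 of co-chaperones. A match is a description of the letters in this window and not a measured binding site.

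Small heat shock proteins of the cytosol rose in 8 of 10 tested cases, 7 of them at least 2-fold, and 1 fell (median 3.93). Over all tested genes 44% rose and 28.6% fell, 11.7% and 6.61% at least 2-fold. HSP17.8 (AT1G07400), a class I protein, stood at 3.45, 3.09 and 3.21 TPM in dark libraries 1 to 3 and at 311, 317 and 294 TPM in light libraries 1 to 3, a log2 change of 6.18 (SE 0.048, adjusted p = 1.07e-11). The groups did not overlap, with light higher. HSP17.4 (AT3G46230) rose from 0.569 ± 0.236 TPM to 27.7 ± 2.08 TPM and HSP17.6 (AT5G12020), a class II protein, from 0.171 ± 0.0911 TPM to 46.3 ± 2.99 TPM. The member that fell, HSP15.4 (AT4G21870), was the most abundant of the list in dark and went from 200.1 ± 5.71 TPM to 33.7 ± 1.4 TPM, while HSP14.7 stood at 1.87 ± 0.24 TPM in darkness and 2.18 ± 0.295 TPM after light and was not called. All 3 tested members of 6 organelle small heat shock proteins rose. The filter took the mean over both groups, so a gene under 1 TPM in darkness could be tested only if it was higher in light. This holds at least for HSP23.6, and for HSP17.4, HSP17.6 and HSP17.6A-CI of the cytosol, whose direction was thus set in advance. The counts of rises in these lists include such genes. The mitochondrial HSP23.5 (AT5G51440) and HSP23.6 (AT4G25200) rose from 4.16 ± 0.38 TPM to 245 ± 6.76 TPM and from 0.291 ± 0.196 TPM to 26.53 ± 2.56 TPM. The plastid member HSP21 was under the filter, listed at 0 in every dark library, and light libraries 1 to 3 held 0.439, 0.58 and 0.445 TPM.

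Larger chaperones rose in every compartment that the list covers. Of 21 tested HSP70, HSP90 and HSP100 genes 20 rose, 19 of them at least 2-fold, beside 44% and 11.7% of all tested genes. Their median log2 change was 2.48. Their summed level went from 1890.02 ± 8.76 to 12149 ± 171 TPM (SD, n = 3). HSP70-4 (AT3G12580), a cytosolic HSP70, stood at 6.33, 6.72 and 6.44 TPM in dark libraries 1 to 3 and at 946, 949 and 955 TPM in light libraries 1 to 3, a log2 change of 6.99 (SE 0.031, adjusted p = 9.62e-13). Each light library exceeded all dark libraries. In the cytosol HSP70-3 (AT3G09440) rose from 30.9 ± 1.15 TPM to 2110.1 ± 19.4 TPM and the disaggregase HSP101 (AT1G74310) from 3.59 ± 0.205 TPM to 182 ± 3.19 TPM. In mitochondria mtHSC70-2 rose from 20.4 ± 1.04 TPM to 268 ± 2.37 TPM and the disaggregase CLPB4 from 4.03 ± 0.318 TPM to 45.1 ± 0.977 TPM. In the endoplasmic reticulum BIP1 rose from 62.2 ± 0.479 TPM to 348 ± 9.55 TPM and the HSP90 protein HSP90.7 from 74.7 ± 9.06 TPM to 153 ± 15.3 TPM. In plastids cpHSC70-2 rose from 103 ± 2.09 TPM to 402 ± 6.31 TPM, CLPB3 from 25.6 ± 0.895 TPM to 105 ± 3.78 TPM and HSP90.5 from 158 ± 2.2 TPM to 373 ± 9.21 TPM. The only tested member without a call was HSP70-5, at 5.62 ± 0.102 TPM in darkness and 5.58 ± 0.172 TPM after light. HSP90.2, HSP90.3 and HSP90.4, BIP1 and BIP2, and several HSP17.6 genes are close copies, and their estimates may be split between copies.

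Co-chaperones rose in 10 of 12 cases, 8 at least 2-fold (median 2.11), and BAG7, an endoplasmic reticulum protein, fell from 115 ± 4.28 TPM to 95.7 ± 3.04 TPM. For each list of this paragraph, the shares of all tested genes were 44% higher and 28.6% lower, with 11.7% at least 2-fold higher. FES1A (AT3G09350), a nucleotide exchange partner of HSP70, rose from 9 ± 0.567 TPM to 325 ± 3.84 TPM, and ROF2 (AT5G48570), a prolyl isomerase that binds HSP90, from 3.49 ± 0.37 TPM to 144 ± 3.55 TPM. HOP3 (AT4G12400), which joins HSP70 to HSP90, rose from 2.31 ± 0.183 TPM to 62.7 ± 6.21 TPM. Plastid chaperones, proteases and repair proteins rose in 11 of 13 cases, but at least 2-fold in 4 (median 0.59), of which 3 also stand in the list of large chaperones. The fourth is FTSH8 (AT1G06430), a subunit of the thylakoid protease that removes damaged photosystem II protein, which rose from 67.7 ± 1.8 TPM to 151 ± 6.26 TPM. In the 26S proteasome list 16 of 20 genes rose, the median was 0.18, near that of all genes, and 2 members passed 2-fold. These were NAC78 (AT5G04410), a transcription factor of proteasome genes, from 45.5 ± 1.07 TPM to 123 ± 0.767 TPM, and the lid subunit RPN6 (AT1G29150), from 48.2 ± 0.79 TPM to 101 ± 2.17 TPM.

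Other genes among the 12 largest rises and the 12 largest falls have varied roles. SQP1 (AT5G24150), which RefSeq also names squalene monooxygenase 5, rose from 1.2 ± 0.218 TPM to 89.7 ± 0.836 TPM. AT2G27420, of the cysteine proteinase superfamily, rose from 0.145 ± 0.089 TPM to 46 ± 0.701 TPM. AT5G14120, of the major facilitator superfamily of transporters, stood at 674, 682 and 678 TPM in dark libraries 1 to 3 and at 21.1, 22.6 and 22.5 TPM in light libraries 1 to 3, a log2 change of -4.88 (SE 0.033, adjusted p = 7.63e-12). Its light values were all far below its dark values. MIOX2 (AT2G19800), which oxidises inositol, fell from 511 ± 4.6 TPM to 17.3 ± 0.875 TPM. The glycosidase genes BGAL4 (AT5G56870) and BXL2 (AT1G02640), for a beta-galactosidase and a beta-xylosidase, fell from 199 ± 0.786 TPM to 10.9 ± 0.431 TPM and from 75.8 ± 2.44 TPM to 3.84 ± 0.257 TPM. AT3G20395, of the RING/U-box superfamily, fell from 51.2 ± 0.832 TPM to 0.903 ± 0.128 TPM.

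All 30 tested genes of ribosome biogenesis rose, 25 at least 2-fold, against 44% and 11.7% of all tested genes. This list, like the others, was chosen with earlier results of these data known, so the comparison is only a description. The median log2 change was 1.29 against 0.12, and the dark and light libraries did not overlap for any of them, beside 75.9% of all genes without overlap. Ribosomes are assembled in the nucleolus, where RNA polymerase I makes the precursor of ribosomal RNA and small nucleolar ribonucleoproteins modify it. The summed level of the list went from 1217 ± 3.22 to 3142 ± 46.1 TPM (SD, n = 3). FIB2 (AT4G25630), a fibrillarin that methylates ribosomal RNA, stood at 25.5, 25.2 and 29 TPM in dark libraries 1 to 3 and at 142, 136 and 142 TPM in light libraries 1 to 3, a log2 change of 2.36 (SE 0.054, adjusted p = 1.76e-09). Light and dark values were fully separate. NUC1 (AT1G48920), nucleolin, an abundant nucleolar protein, stood at 183, 188 and 184 TPM in dark libraries 1 to 3 and at 552, 542 and 538 TPM in light libraries 1 to 3, a log2 change of 1.55 (SE 0.025, adjusted p = 2.26e-10). All 3 light values lay above every dark value. NOP56 (AT1G56110) and NOP58-1 (AT5G27120), core proteins of the same methylating particle as fibrillarin, rose from 50.8 ± 3.09 TPM to 180.1 ± 3.73 TPM and from 22.3 ± 0.648 TPM to 86 ± 4.21 TPM. NRPA1 (AT3G57660), the largest subunit of RNA polymerase I, rose from 6.76 ± 0.627 TPM to 27 ± 0.504 TPM, and BRX1-1 (AT3G15460), a maturation factor of the large ribosomal subunit, from 5.67 ± 0.634 TPM to 29.1 ± 1.02 TPM. CBF5 (AT3G57150), which converts uridine to pseudouridine in ribosomal RNA, rose from 42.6 ± 1.02 TPM to 149.6 ± 1.91 TPM. The smallest log2 change was that of MDN1, a giant remodelling ATPase, at 0.64.

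Promoters of NOP56 and NOP58-1 are shown for the site II element TGGGCC, a motif common upstream of growth and ribosome genes. The 250 bases before the RefSeq TAIR10.1 gene start are given on the strand of the gene, with matches on either strand in capitals. NOP56 is from chr1:20986953-20987202, minus strand, and NOP58-1 from chr5:9540611-9540860, plus strand.
NOP56: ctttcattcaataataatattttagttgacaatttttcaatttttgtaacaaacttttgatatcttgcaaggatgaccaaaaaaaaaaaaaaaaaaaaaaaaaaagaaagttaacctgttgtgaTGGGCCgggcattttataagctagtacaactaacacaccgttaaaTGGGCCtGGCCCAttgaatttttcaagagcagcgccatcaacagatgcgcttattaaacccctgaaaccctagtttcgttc
NOP58-1: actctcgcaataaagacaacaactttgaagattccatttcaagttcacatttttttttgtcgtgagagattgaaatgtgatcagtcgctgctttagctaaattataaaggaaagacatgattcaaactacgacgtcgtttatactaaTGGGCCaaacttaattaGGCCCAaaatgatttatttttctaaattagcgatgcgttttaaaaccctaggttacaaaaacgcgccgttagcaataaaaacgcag
NOP56 holds 3 matches and NOP58-1 holds 2. In the whole list 16 of 30 promoters (53.3%) held the element, against 17.5% of all 17914 promoters and 8.98% of those of genes at least 2-fold lower. The telo box AAACCCTA was found in 5 of 30 (16.7%) against 3.61% of all. Among all genes at least 2-fold higher the shares were 17.36% for site II and 4.38% for the telo box. Site II was more frequent in some other lists, with 8 of 10 promoters of cytosolic small heat shock genes and 4 of 6 of plastid sigma factors, and 8 of 20 of the 26S proteasome list held it. These shares describe letters and were not tested.

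Sulphur genes rose unevenly along their pathway. Sulphate is taken up by SULTR transporters, activated by ATP sulphurylase, reduced by adenosine phosphosulphate reductase (APR) and then sulphite reductase, and built into cysteine by O-acetylserine (thiol) lyases (OAS). Of 35 tested list members 22 rose and 5 fell, 16 and 1 at least 2-fold (median 0.46). Among all tested genes 44% rose and 28.6% fell, 11.7% and 6.61% at least 2-fold. APR1 (AT4G04610), which catalyses the regulated reduction step, stood at 10.7, 9.91 and 10.7 TPM in dark libraries 1 to 3 and at 223, 223 and 241 TPM in light libraries 1 to 3, a log2 change of 4.33 (SE 0.047, adjusted p = 3.74e-11). The groups did not overlap, with light higher. APR2 and APR3 rose from 49.2 ± 1.05 TPM to 334 ± 4.36 TPM and from 52.1 ± 1.87 TPM to 381 ± 18.8 TPM. APK2 (AT4G39940), a kinase that makes the sulphate donor for glucosinolates, rose from 9.98 ± 0.818 TPM to 56 ± 0.854 TPM. The later enzymes changed less, with the sulphite reductase gene SIR at a log2 change of 0.095 and the lyase gene OASB at -0.24. LSU2 (AT5G24660), a small protein named for its response to low sulphur, stood at 2.56, 2.55 and 2.15 TPM in dark libraries 1 to 3 and at 169.9, 168 and 155 TPM in light libraries 1 to 3, a log2 change of 5.597 (SE 0.064, adjusted p = 4.1e-11). Each light library exceeded all dark libraries. Its relatives LSU3 and LSU1 rose from 1.3 ± 0.258 TPM to 47.3 ± 1.05 TPM and from 1.13 ± 0.14 TPM to 42.2 ± 2.67 TPM, and the estimates of these copies may be split. SDI1, a repressor of glucosinolate synthesis, rose from 1.42 ± 0.319 TPM to 43.8 ± 1.62 TPM. The myrosinase-like gene BGLU30 fell from 1.77 ± 0.136 TPM to 0.226 ± 0.0739 TPM.

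Glucosinolates are sulphur-rich defence compounds of the cabbage family, and their synthesis genes rose together. Of 27 tested genes 24 rose and 1 fell, with 19 at least 2-fold higher and a median log2 change of 1.803, beside 0.12 over all genes. The shares of all tested genes were 44% higher and 28.6% lower, with 11.7% at least 2-fold higher. The summed level of the list went from 698 ± 12.2 to 1657 ± 19.7 TPM (SD, n = 3). Activators of the aliphatic branch rose, with MYB29 (AT5G07690) going from 1.48 ± 0.0594 TPM to 12.7 ± 1.17 TPM. So did MYB34 (AT5G60890), an activator of the indole branch, from 7.75 ± 0.275 TPM to 42.8 ± 1.89 TPM. CYP83B1 (AT4G31500), a cytochrome P450 of the indole branch, stood at 42.8, 44.1 and 40.4 TPM in dark libraries 1 to 3 and at 213, 211 and 209 TPM in light libraries 1 to 3, a log2 change of 2.29 (SE 0.037, adjusted p = 2.12e-10). Light and dark values were fully separate. CYP79F2 (AT1G16400), which starts the aliphatic core pathway, rose from 3.04 ± 0.438 TPM to 19.5 ± 1.55 TPM. The gene that fell was MYB51 (AT1G18570), another indole activator, from 15.2 ± 0.819 TPM to 9.79 ± 1.34 TPM. CYP79B3 and MAM1 were not called.

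Among the 12 largest falls were SEN5 and DYL1, of the SnRK1 network, and ERD5, of amino acid breakdown. SnRK1 is a kinase that is active at low sugar, and bZIP transcription factors, class II trehalose phosphate synthase-like (TPS) proteins and dormancy proteins belong to its network. Of 24 tested members 17 fell and 6 rose, 12 and 2 at least 2-fold, against 6.61% and 11.7% of all tested genes, and the median log2 change was -1.15. SEN5 (AT3G15450) stood at 2438, 2378 and 2489 TPM in dark libraries 1 to 3 and 78.2, 77.3 and 70.2 TPM in light libraries 1 to 3, a log2 change of -4.999 (SE 0.042, adjusted p = 1.25e-11). KINB1 (AT5G21170), a regulatory subunit of SnRK1, stood at 228, 219.7 and 223 TPM in dark libraries 1 to 3 and at 15.9, 15.1 and 15.8 TPM in light libraries 1 to 3, a log2 change of -3.76 (SE 0.036, adjusted p = 2.07e-11). All 3 light values lay below every dark value. The catalytic subunits changed by less than 2-fold, with KIN10 at a log2 change of -0.25 and KIN11 at 0.32. The TPS genes split by member. TPS8, TPS9, TPS10 and TPS11 fell to between 4.08 and 5.3 TPM from dark means of 63 to 82.7 TPM. TPS5 (AT4G17770), a member of the same class, stood at 4.47, 4.79 and 4.39 TPM in dark libraries 1 to 3 and at 40.4, 41.3 and 40.9 TPM in light libraries 1 to 3, a log2 change of 2.92 (SE 0.053, adjusted p = 4.47e-10). All 3 light values lay above every dark value. The bZIP factors divided likewise, with bZIP11 (AT4G34590) rising from 17.2 ± 0.756 TPM to 104 ± 0.752 TPM and bZIP1 (AT5G49450) falling from 68.1 ± 0.716 TPM to 6.52 ± 0.285 TPM. bZIP63 (AT5G28770), which SnRK1 phosphorylates, fell from 66.1 ± 1.2 TPM to 6.82 ± 0.944 TPM. The hexose transporter gene STP1 fell from 454 ± 13.3 TPM to 66.6 ± 2.47 TPM.

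Amino acid breakdown, which feeds respiration when sugar runs short, fell in 17 of 25 tested genes and rose in 1, 16 and 1 at least 2-fold (median -1.57). Shares over all tested genes were 28.6% and 44%, with 6.61% and 11.7% at least 2-fold. The summed level of the list went from 3391 ± 25.1 to 859.9 ± 0.989 TPM. ERD5 (AT3G30775), proline dehydrogenase, stood at 679.7, 693 and 662 TPM in dark libraries 1 to 3 and at 37.3, 39.7 and 36.5 TPM in light libraries 1 to 3, a log2 change of -4.13 (SE 0.037, adjusted p = 1.68e-11). The groups did not overlap, with light lower. Breakdown of leucine, isoleucine and valine fell at successive steps, from the transaminase BCAT2 (from 128 ± 1.28 TPM to 12.5 ± 1.49 TPM) and the dehydrogenase complex subunit BCKDH E1 alpha (from 156 ± 0.961 TPM to 26.6 ± 3.06 TPM) to the carboxylase subunit MCCA (from 216 ± 3.76 TPM to 25.4 ± 0.271 TPM). The lysine enzyme LKR fell from 36.1 ± 0.692 TPM to 11.5 ± 0.439 TPM, the threonine aldolase THA1 from 107 ± 1.52 TPM to 15.2 ± 0.626 TPM and the tyrosine enzyme HGO from 156 ± 0.993 TPM to 16 ± 1.07 TPM. GDH2, a glutamate dehydrogenase, fell from 396 ± 24.4 TPM to 47.7 ± 3.88 TPM, and ASN1, the dark-induced asparagine synthetase, from 428 ± 5.22 TPM to 78.7 ± 2.3 TPM. The member that rose was TAT7 (AT5G53970), a tyrosine aminotransferase, from 40.8 ± 0.343 TPM to 123 ± 0.729 TPM.

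Autophagy delivers cell contents to the vacuole for recycling. Of 19 tested genes 14 fell and 1 rose, with 4 at least 2-fold lower and a median of -0.80. Among all tested genes 28.6% fell and 44% rose, with 6.61% at least 2-fold lower. ATG8 proteins coat the autophagosome, and their genes behaved unequally. ATG8E (AT2G45170), the member with the highest dark level, stood at 311, 317 and 305 TPM in dark libraries 1 to 3 and at 22, 21.1 and 23.3 TPM in light libraries 1 to 3, a log2 change of -3.75 (SE 0.041, adjusted p = 3.74e-11). Each light library was below all dark libraries. ATG8F (AT4G16520) fell from 194 ± 5.97 TPM to 34.4 ± 1.11 TPM, whereas ATG8B stood at 9.04 ± 0.563 TPM in darkness and 9.9 ± 0.786 TPM after light and was not called. The interacting proteins ATI1 (AT2G45980) and ATI2 (AT4G00355) fell from 80.2 ± 2.69 TPM to 39.4 ± 1.33 TPM and from 53.8 ± 3.95 TPM to 21.6 ± 2.49 TPM. The member that rose was the kinase gene ATG1A (AT3G61960), from 9.24 ± 0.549 TPM to 15.6 ± 0.608 TPM.

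Promoters of TPS11 and ATG8B are shown for the I-box core, known from light-regulated plant promoters, and for the TATCCA element, known from sugar-repressed amylase promoters of rice. TPS11 fell and ATG8B was not called. Both are the 250 bases before the RefSeq TAIR10.1 gene start on the strand of the gene, TPS11 from chr2:8108648-8108897, plus strand and ATG8B from chr4:2330591-2330840, minus strand. Capitals mark the I-box core GATAAG in TPS11 and the TATCCA element in ATG8B, each on either strand. The motifs can overlap, as the reverse complement of the I-box core ends with the first bases of the TATCCA element.
TPS11: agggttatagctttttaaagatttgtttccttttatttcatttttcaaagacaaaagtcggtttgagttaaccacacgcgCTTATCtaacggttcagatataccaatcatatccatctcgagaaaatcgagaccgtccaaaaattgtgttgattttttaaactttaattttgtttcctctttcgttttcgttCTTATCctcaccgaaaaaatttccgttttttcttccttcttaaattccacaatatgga
ATG8B: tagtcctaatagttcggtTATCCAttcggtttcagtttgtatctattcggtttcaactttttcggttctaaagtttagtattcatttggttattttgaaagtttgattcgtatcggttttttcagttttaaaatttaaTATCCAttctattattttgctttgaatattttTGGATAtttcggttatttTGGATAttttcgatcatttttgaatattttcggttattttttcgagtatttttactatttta
The I-box core was in 18.7% of promoters of genes at least 2-fold lower, 10.5% of those at least 2-fold higher and 12.4% of all. For the TATCCA element the shares were 21%, 14.3% and 14.3%. In the autophagy list the TATCCA element was in 9 of 19 promoters, in the amino acid breakdown list in 5 of 25 and in the plastid chaperone list in 5 of 13. The I-box core was in 9 of 24 promoters of the SnRK1 list, 5 of 25 of amino acid breakdown and 4 of 12 of co-chaperones. The plastid chaperone and co-chaperone lists are not lists that mostly fell. ATG8B, which holds 4 TATCCA matches, was not called in either direction.

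Of 25 tested nitrate genes 15 fell and 6 rose, with 8 at least 2-fold lower and 0 higher (median -0.44). The shares of all tested genes were 28.6% and 44%, with 6.61% and 11.7% at least 2-fold. Both nitrate reductase genes fell, NIA1 from 457 ± 3.18 TPM to 81.2 ± 1.46 TPM and NIA2 from 1283 ± 28.1 TPM to 454 ± 4.13 TPM. BT2 (AT3G48360), a scaffold protein that represses nitrate uptake genes, stood at 226, 232 and 226 TPM in dark libraries 1 to 3 and at 19.7, 16.9 and 18.5 TPM in light libraries 1 to 3, a log2 change of -3.57 (SE 0.052, adjusted p = 1.39e-10). All 3 light values lay below every dark value. HRS1 (AT1G13300), a transcription factor of nitrate and phosphate signalling, fell from 8.66 ± 0.578 TPM to 0.511 ± 0.146 TPM. The 6 that rose, among them the cytosolic glutamine synthetases GLN1;1, GLN1;2 and GLN1;3, did so by at most 0.62 on the log2 scale.

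**Figure D2:**
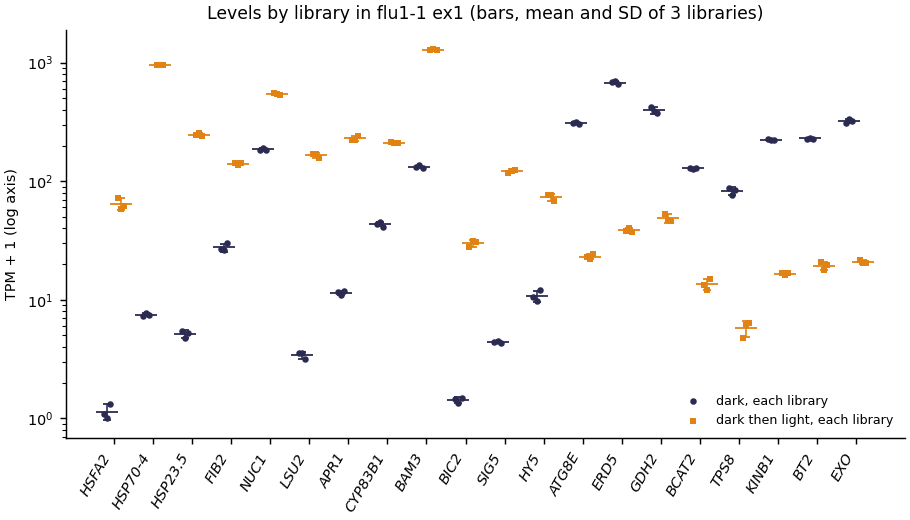
Level of 20 named genes in each of the 3 dark (circles) and 3 light (squares) libraries, as TPM + 1 on a log axis, with mean and SD. The genes were chosen from the lists with results known, and the groups did not overlap in 75.9% of all tested genes. Libraries of a group lie close together and the groups do not overlap for any gene shown, from HSFA2, at 0 to 0.327 TPM in dark and 57.8 to 71.7 TPM in light, to EXO, from 323 ± 12.4 TPM to 19.8 ± 0.639 TPM.

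Genes of photoreceptor signalling changed in both directions. Of 36 tested receptors and regulators 21 rose and 11 fell, 18 and 4 at least 2-fold (median 0.86). Over all tested genes the shares were 44% and 28.6%, with 11.7% and 6.61% at least 2-fold. Inhibitors and brakes of light signalling were among the largest rises. BIC2 (AT3G44450), which blocks activation of the blue-light receptor cryptochrome, stood at 0.456, 0.342 and 0.483 TPM in dark libraries 1 to 3 and at 26.7, 30.1 and 29.9 TPM in light libraries 1 to 3, a log2 change of 4.39 (SE 0.087, adjusted p = 6.88e-10). The groups did not overlap, with light higher. BIC1, its relative, rose from 0.969 ± 0.0857 TPM to 34.5 ± 1.99 TPM. The B-box proteins BBX31 (AT3G21890) and BBX32 (AT3G21150) rose from 0.0408 ± 0.0707 TPM to 12.4 ± 1.24 TPM and from 0.206 ± 0.101 TPM to 10.4 ± 1.03 TPM. These BIC and BBX genes averaged under 1 TPM in darkness, so they were tested only because they were higher in light. HY5 (AT5G11260), the central activator of photomorphogenesis, stood at 9.56, 8.72 and 11 TPM in dark libraries 1 to 3 and at 75.2, 75.2 and 67 TPM in light libraries 1 to 3, a log2 change of 2.77 (SE 0.082, adjusted p = 8.97e-09). Each light library exceeded all dark libraries. Its relative HYH rose from 6.27 ± 0.441 TPM to 46.2 ± 2.13 TPM. COP1 and SPA1, components of the ubiquitin ligase that removes HY5, rose from 12.5 ± 1.02 TPM to 33.6 ± 0.159 TPM and from 15.2 ± 0.379 TPM to 71.9 ± 1.29 TPM, and RUP2, a repressor of the UV-B receptor, from 3.8 ± 0.387 TPM to 21.2 ± 1.32 TPM. The DNA repair photolyase gene PHR1 rose from 2.22 ± 0.814 TPM to 14.1 ± 0.972 TPM. Among receptors, PHYB rose from 18.1 ± 0.566 TPM to 42.1 ± 0.79 TPM, while PHYA, the phytochrome that accumulates in darkness, fell from 38.8 ± 1.63 TPM to 15.8 ± 1.53 TPM, with its nuclear import factor FHY1 going from 22 ± 1.06 TPM to 5.53 ± 0.152 TPM. PHOT2 rose from 23.7 ± 2.95 TPM to 71.6 ± 4.88 TPM and PHOT1 fell from 63.9 ± 1.87 TPM to 43.8 ± 1.53 TPM, and both cryptochromes fell, CRY1 from 94.6 ± 2.18 TPM to 47.2 ± 2.02 TPM.

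Of the 6 nuclear sigma factors that direct the plastid RNA polymerase, 5 rose and 1 fell, 1 of them at least 2-fold. SIG5 (AT5G24120), the blue-light and stress-induced member, stood at 3.44, 3.53 and 3.35 TPM in dark libraries 1 to 3 and at 117, 122 and 124 TPM in light libraries 1 to 3, a log2 change of 4.78 (SE 0.045, adjusted p = 2.07e-11). Light and dark values were fully separate. SIG1 came next with a log2 change of 0.98, and SIG3 fell from 47.7 ± 1.69 TPM to 35.2 ± 0.63 TPM. Flavonoid synthesis rose in 9 of 11 tested genes, 8 at least 2-fold (median 3.005). F3H rose from 3.54 ± 0.447 TPM to 75.4 ± 3.15 TPM and the flavonol regulator MYB111 from 0.986 ± 0.148 TPM to 18.21 ± 0.988 TPM. The falls were DFR, which opens the anthocyanin branch, from 3.11 ± 0.731 TPM to 0.704 ± 0.181 TPM, and MYBL2, a repressor of that branch, from 39.2 ± 1.08 TPM to 7.51 ± 0.349 TPM. In carotenoid and tocopherol synthesis 16 of 26 genes rose and 5 fell, 6 and 1 at least 2-fold. Beside these and the sigma factor and flavonoid counts, 44% of all tested genes rose and 28.6% fell, 11.7% and 6.61% at least 2-fold. The carotene hydroxylase BCH2 rose from 9.14 ± 1.21 TPM to 46 ± 1.6 TPM and phytoene synthase PSY, the entry enzyme, from 74.2 ± 6.75 TPM to 163 ± 10.7 TPM. The tocopherol precursor enzyme HPPD fell from 95 ± 5.69 TPM to 36.2 ± 3.04 TPM.

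Starch and sucrose genes rose in 21 of 31 tested cases and fell in 5, with 8 and 1 at least 2-fold (median 0.21). All tested genes gave 44% and 28.6%, with 11.7% and 6.61% at least 2-fold and a median of 0.12. Genes on both sides of starch metabolism rose. BAM3 (AT4G17090), the main beta-amylase of leaf starch breakdown, stood at 129.8, 135 and 128 TPM in dark libraries 1 to 3 and at 1284, 1308 and 1268 TPM in light libraries 1 to 3, a log2 change of 3.29 (SE 0.028, adjusted p = 1.25e-11). All 3 light values lay above every dark value. GBSS1, which makes amylose, rose from 12.6 ± 0.616 TPM to 119 ± 3.47 TPM, and APL3, a regulatory subunit of ADP-glucose pyrophosphorylase, from 2.32 ± 0.208 TPM to 15.5 ± 0.448 TPM. GPT2 (AT1G61800), a glucose phosphate transporter of the plastid envelope, rose from 0.874 ± 0.159 TPM to 24.8 ± 2.11 TPM. QQS, a regulator of carbon and nitrogen allocation, fell from 1.98 ± 0.42 TPM to 0.529 ± 0.474 TPM.

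**Figure D3:**
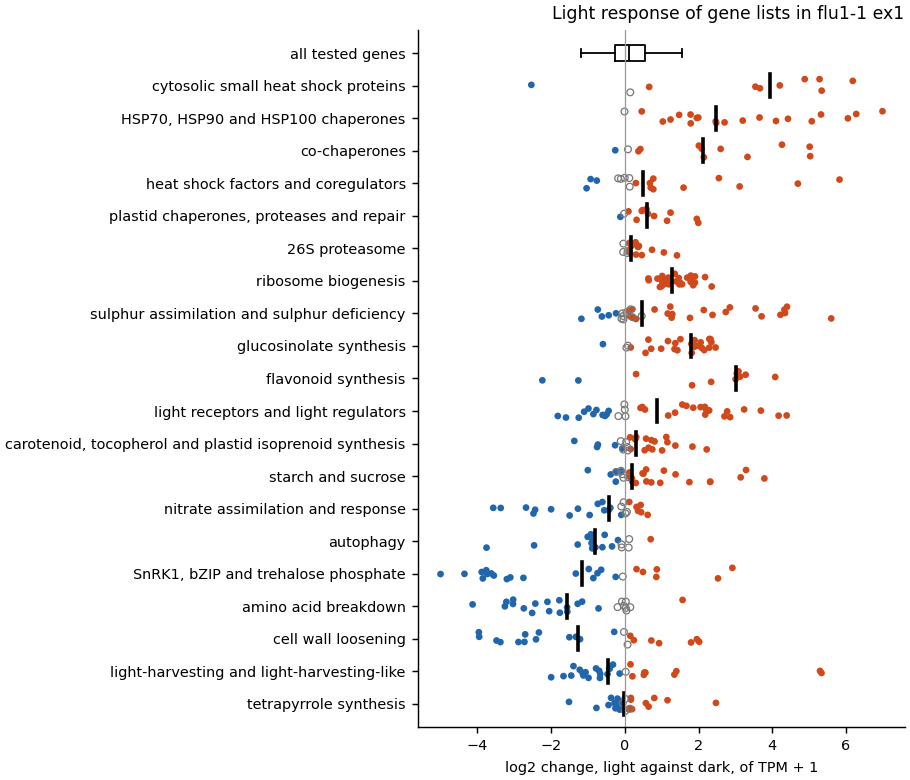
Log2 change of every tested member of 20 gene lists, with called members filled in red (higher) or blue (lower), other members open and the list median as a bar. The box holds all 18042 tested genes with their quartiles, and its whiskers run from the 5th to the 95th percentile. All 30 ribosome biogenesis genes lie right of 0, and amino acid breakdown has 17 of 25 called lower. The lists were chosen with earlier results of these data known.

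Genes of the photosynthetic apparatus changed in both directions. Of 28 light-harvesting and related genes 18 fell and 9 rose, 8 and 4 at least 2-fold. All tested genes gave 28.6% and 44%, with 6.61% and 11.7% at least 2-fold. The summed level of the list went from 58384 ± 1024 to 33447 ± 394 TPM. LHCB1.4 (AT2G34430) fell from 2674 ± 73.2 TPM to 668 ± 8.42 TPM and LHCA1 (AT3G54890), an antenna protein of photosystem I, from 2939 ± 42.2 TPM to 1346 ± 14.6 TPM. LHCB1 genes are near-identical copies whose estimates may be split. By contrast the photoprotective relatives ELIP1 and ELIP2 rose from 0.516 ± 0.156 TPM to 59.9 ± 2.3 TPM and from 2.37 ± 0.25 TPM to 131 ± 4.32 TPM, and SEP2, a related stress-enhanced protein, from 82.5 ± 5.37 TPM to 211 ± 6.86 TPM. Tetrapyrrole synthesis, the pathway that FLU restrains, had 10 genes higher and 12 lower of 26, and 3 changed at least 2-fold. The shares over all tested genes were 44%, 28.6% and 18.3%. GUN4, an activator of magnesium chelatase, rose from 47.9 ± 5.54 TPM to 269 ± 8.48 TPM, and the ferrochelatase FC1 from 25.3 ± 0.48 TPM to 57.7 ± 0.786 TPM. HEMA2, a glutamyl-tRNA reductase of nongreen tissue, fell from 33.8 ± 1.08 TPM to 11.2 ± 1.05 TPM. The median of this list was -0.027, and -0.15 after quantile normalization. Of 13 photorespiration genes 1 changed at least 2-fold, GLDP1, the glycine decarboxylase P protein, which rose from 411 ± 3.2 TPM to 903 ± 6.24 TPM. None of 7 tested Calvin cycle genes did, and 3 were called lower. Their median, -0.048, was 0.10 after quantile normalization.

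Hormone and growth genes gave smaller groups. In the abscisic acid list 12 of 21 tested genes rose and 6 fell, 7 and 5 at least 2-fold. Of all tested genes 44% rose and 28.6% fell, 11.7% and 6.61% at least 2-fold. All 3 tested receptors of this chosen list fell and all 6 of its tested phosphatases rose, and the list need not cover either family. PYL5 (AT5G05440), an abscisic acid receptor, stood at 151, 159.9 and 152 TPM in dark libraries 1 to 3 and at 14.4, 13.7 and 13.8 TPM in light libraries 1 to 3, a log2 change of -3.38 (SE 0.039, adjusted p = 4.14e-11). The groups did not overlap, with light lower. PYL4 and PYL6 also fell, from 181 ± 4.73 TPM to 81.9 ± 1.07 TPM and from 19.6 ± 0.68 TPM to 5.14 ± 0.489 TPM. The phosphatases that these receptors inhibit rose, with HAB1 from 4.46 ± 1.04 TPM to 21.6 ± 3.95 TPM, ABI2 from 2.27 ± 0.231 TPM to 7.32 ± 0.182 TPM and ABI1 from 28 ± 0.862 TPM to 70.7 ± 0.618 TPM. The response gene RD29A rose from 6.87 ± 0.612 TPM to 83.1 ± 1.96 TPM and CYP707A2, which breaks abscisic acid down, from 0.328 ± 0.381 TPM to 7.01 ± 0.113 TPM.

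Of 20 tested auxin genes 5 rose and 11 fell, and 3 changed at least 2-fold, near the 18.3% of all tested genes. IAA17 and IAA1, repressors of auxin response, rose from 17.1 ± 1.25 TPM to 51 ± 3.81 TPM and from 8.84 ± 0.237 TPM to 20.6 ± 0.514 TPM, and GH3.6, which conjugates auxin to amino acids, fell from 41.1 ± 1.59 TPM to 15 ± 0.786 TPM. Among 9 cytokinin genes ARR8, a response regulator, alone passed 2-fold and rose from 6.04 ± 0.131 TPM to 14.72 ± 1.14 TPM. Of 22 cell wall loosening genes 13 fell and 7 rose, 12 and 3 at least 2-fold (median -1.27). Over all tested genes 28.6% fell and 44% rose, 6.61% and 11.7% at least 2-fold. EXO (AT4G08950), an extracellular protein that promotes growth, stood at 311, 336 and 322 TPM in dark libraries 1 to 3 and at 20.6, 19.6 and 19.4 TPM in light libraries 1 to 3, a log2 change of -3.96 (SE 0.039, adjusted p = 2.73e-11). Each light library was below all dark libraries. XTH15, a wall-remodelling transglycosylase, fell from 31.6 ± 1.21 TPM to 1.93 ± 0.312 TPM, and its relative XTH24 from 1490.5 ± 20.2 TPM to 143 ± 8.05 TPM. The expansin genes EXPA5 and EXPA10 rose from 8.49 ± 0.0447 TPM to 35.7 ± 0.892 TPM and from 15.6 ± 1.44 TPM to 56.6 ± 2.02 TPM. In the sterol list 7 of 22 genes rose and 11 fell, beside 44% and 28.6% of all tested genes. At least 2-fold changes were called for 3 and 1, near the 11.7% and 6.61% of all tested genes. The squalene epoxidase SQE3 rose from 28.1 ± 0.84 TPM to 139.6 ± 2.03 TPM, whereas HMG1, which sets the flow into the mevalonate pathway, fell from 477 ± 12.5 TPM to 222 ± 3.78 TPM.

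Early singlet oxygen markers changed in both directions. Of 10 tested members 6 rose and 2 fell, 3 and 1 at least 2-fold (median 0.62). Over all tested genes 44% rose and 28.6% fell, 11.7% and 6.61% at least 2-fold. OXI1, a kinase of oxidative signalling, rose from 0.321 ± 0.102 TPM to 10.9 ± 0.683 TPM, and SIB1, a sigma factor binding protein, from 0.937 ± 0.209 TPM to 4.73 ± 0.346 TPM. Both averaged under 1 TPM in darkness and passed the filter only by being higher in light. TCH4, a touch-induced wall enzyme that also stands in the wall list as XTH22, fell from 164 ± 2.92 TPM to 24.5 ± 2.09 TPM. AAA-ATPase and BAP2 stayed under the filter, with light means of 0.738 and 0.951 TPM.

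Some transcripts were listed at 0 in one group. Such a value can be a failed estimate, so they are given without a fold. In total 110 genes were listed at 0 in all dark libraries and above 0 in all light libraries, and 68 the other way round. The highest in light were AT3G22530, annotated as a heat shock protein, at 17.1, 14.72 and 15.1 TPM, and AT1G48750, of the lipid-transfer protein superfamily, at 13.2, 14.3 and 18.15 TPM. The highest in dark was CML30 (AT2G15680), a calmodulin-like protein, at 13.3, 13.1 and 14.8 TPM, ahead of PLIM2a (AT2G45800), an actin-binding protein, at 4.57, 3.61 and 3.89 TPM. Gene structure was compared as well. Genes with a single exon in RefSeq made up 21.4% of those at least 2-fold higher, 22.1% of those at least 2-fold lower and 12.7% of other tested genes. The median number of exons was 4, 3 and 5 in the same order.

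The light response of flu1-1 ex1 was then set against that of flu1-5 ex1 with an interaction term over all 12 libraries, which share no controls. Of 17830 tested genes with the same transcript in both tables, 29.6% differed, 11.3% with a more positive and 18.3% with a more negative change in flu1-5 ex1, and 2.83% differed at least 2-fold. Ribosome biogenesis rose more in flu1-1 ex1, with 28 of 30 members more negative in flu1-5 ex1, 0 more positive and a median difference of -0.40, against -0.056 over all genes. FIB2 rose by 2.36 on the log2 scale in flu1-1 ex1 and by 1.35 in flu1-5 ex1 (interaction adjusted p = 5.1e-07). Of 34 sulphur genes 16 had a more negative change in flu1-5 ex1 and 5 a more positive one. APR1 rose by 4.33 and 1.85 (adjusted p = 1.09e-10), and LSU3 by 4.398 and 2.16 (adjusted p = 9.5e-08). For 27 glucosinolate genes the numbers were 18 and 1.

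Many genes of amino acid breakdown and the SnRK1 network differed in their change between the lines. Of 25 amino acid breakdown genes 14 had a more positive change in flu1-5 ex1 and 1 a more negative one, and of 24 SnRK1 network genes 12 and 3. Among all genes tested for the difference these shares were 11.3% and 18.3%. ERD5 fell by 4.13 on the log2 scale in flu1-1 ex1 and by 3.07 in flu1-5 ex1 (adjusted p = 6.8e-09). Heat shock genes did not go one way. Cytosolic small heat shock genes were more positive in flu1-5 ex1 in 8 of 10 cases and more negative in 0, and heat shock factors in 12 and 0 of 18. The large chaperones were more positive in 4 and more negative in 12 of 21. HSP17.4 rose by 4.202 in flu1-1 ex1 and 6.69 in flu1-5 ex1, whereas cpHSC70-2 rose by 1.95 and 1.39. All 11 singlet oxygen markers with a test were more positive in flu1-5 ex1 (median difference 1.61). In flu1-1 ex1 alone 10 passed the filter. The filter of the interaction took the mean over 12 libraries, so a marker low in flu1-1 ex1 could enter through flu1-5 ex1. The direction of such a marker is partly set by the filter. For genes at low levels the pseudocount can enlarge or shrink such a difference.

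**Figure D4:**
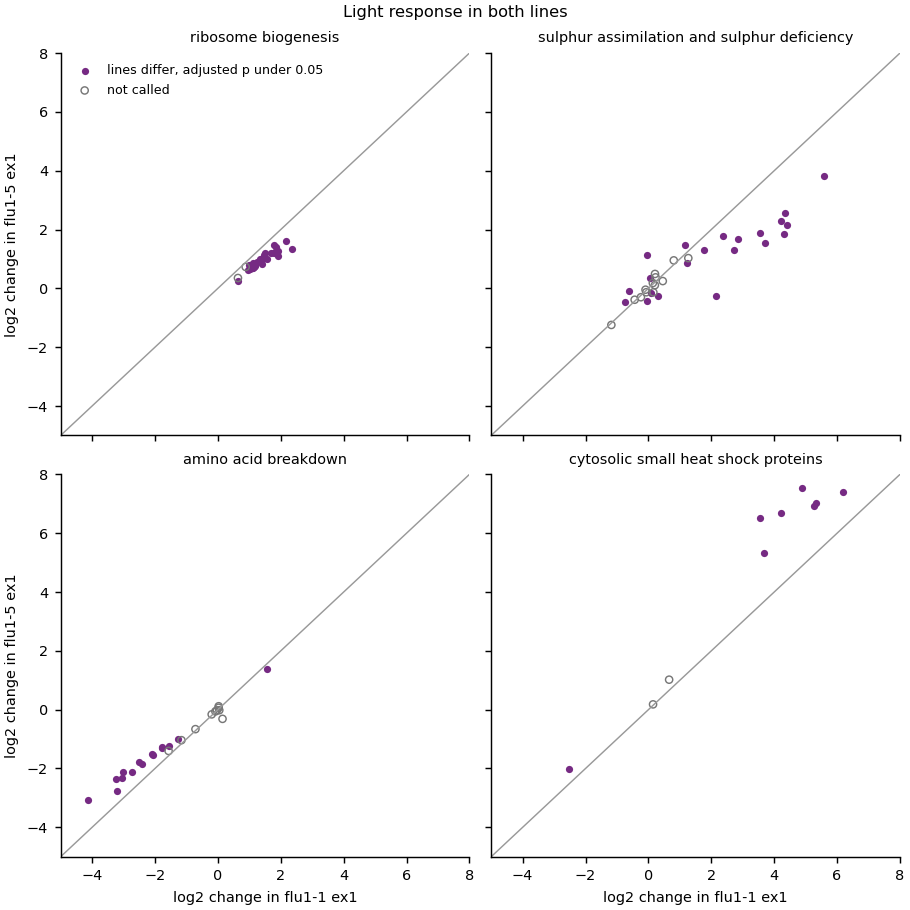
Log2 change in light in flu1-1 ex1 (horizontal axis) and flu1-5 ex1 (vertical axis) for members of 4 gene lists, filled where the lines differed at an adjusted p under 0.05. The line marks equal change, and ribosome biogenesis members lie below it, small heat shock proteins mostly above it and amino acid breakdown members above it where they fell.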

How the data were processed

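Per the labels, total RNA of seedlings was read on a DNBSEQ-T7. The authors deposited TPM values for 27655 genes, 1 transcript per gene, per the file headers. The submitters' processing notes name kallisto 0.46.2, sleuth 0.30.0 and TAIR10, without their roles. The deposited fold and p-value columns were not used. A change of transcript may look like a change of level, and strand is not given in the sources used here.

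Genes averaging 1 TPM or more were tested on log2(TPM + 1) with limma 3.58.1 (R 4.3.3, statmod 1.5.0), with trend and robust moderation, two-sided, and Benjamini-Hochberg adjustment over all genes tested. The 6 flu1-1 ex1 libraries gave the light response, and all 12 an interaction for the 17830 genes that passed the filter and had the same transcript in both tables. The members and the 34 gene lists (617 genes, some in more than 1 list) were chosen with earlier results of these data known. Genes were named by rule: the 12 largest rises and falls among called genes at or above the median level, the 10 largest gains and losses in TPM, the 3 largest rises and falls of at least 2-fold per list, FLU, EX1 and EX2, and 5 genes at 0 in either group. Not all of these are described, and the remaining genes were named after their values were seen. Symbols come from the lists and from RefSeq, which held 27445 of the identifiers. Promoters and coordinates are from RefSeq TAIR10.1, whereas the deposited tables hold no coordinates. Alternatives were quantile normalization, other pseudocounts and filters, a stricter threshold, the replicate block and left-out libraries.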

Additional observations from a re-analysis of the deposited data

Results flagged for a closer look

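Results stand here where the light response differed between the lines by a test of the difference itself. Of 136 named genes with that test, 96 differed at an interaction adjusted p under 0.05 in limma over 12 libraries. These genes were named for large changes in flu1-1 ex1, which enter the difference, so their share is not set against that of all genes. Of these, 28 differed by at least 2-fold, 21 with a more positive and 7 with a more negative change in flu1-5 ex1. Values are the log2 change in flu1-5 ex1 minus that in flu1-1 ex1. Heat shock genes had differences of 1.23 for HSP17.8, 1.68 for HSP17.6, 1.19 for HSP101, 1.66 for HSP17.6A-CI, 1.31 for HSP23.6, 2.19 for DREB2A and 1.03 for HSFA3. Among other genes that fell less in flu1-5 ex1 the differences were 1.22 for SEN5, 1.29 for MIOX2, 1.502 for DYL1, 1.06 for ERD5 and 1.14 for SAG21. Genes of the cell wall had 1.73 for EXO, 1.01 for XTH15 and 2.47 for TCH4. Other genes with a more positive change were at 1.17 for AT3G20395, 1.13 for AT2G17880, 1.11 for BBX31, 1.23 for HEMA2, 2.199 for SIB1 and 1.42 for CRA1. More negative changes were -1.77 for LSU2, -2.24 for LSU3, -1.797 for LSU1, -1.02 for HRS1, -1.003 for FIB2, -1.44 for FLS1 and -1.68 for AT1G48750. CRA1 alone had opposite signs, at -1.34 in flu1-1 ex1 and 0.077 in flu1-5 ex1 (adjusted p = 0.00077). Groups of 3 libraries are too small for a check of single outlying samples.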

How the results depend on the processing

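Named genes that were called had to keep their direction and their side of the threshold. For FLU, which was not called and had a log2 change of 0.0048, a change of sign was not counted. Of 137 named genes tested, 135 passed this check under every alternative that could test them. AT2G01021 and RBCS3B lost their calls after quantile normalization. With a pseudocount of 5, genes at least 2-fold higher numbered 1203 and those lower 714, since a larger pseudocount shrinks the change of low genes. At an adjusted p under 0.01 the lines differed in 3308 genes. Quantile normalization left 1638 genes at least 2-fold higher and 1532 lower, and 5013 that differed between lines. A pseudocount of 0.1 gave 2569 and 1416, and a mean of at least 5 TPM gave 1723 and 1004. Leaving out each library in turn, or both flu1-1 ex1 libraries numbered 3, gave 2065 to 2134 genes at least 2-fold higher and 1182 to 1217 lower. The last of these was chosen after seeing the data, and without both libraries numbered 3 the ribosome list had 23 of 30 members at least 2-fold higher and the amino acid breakdown list 16 of 25 lower. After quantile normalization 28 of 30 ribosome genes and 16 of 34 sulphur genes had a more negative change in flu1-5 ex1. The samples share only a replicate number. With the replicate block 2104 genes were at least 2-fold higher and 1198 lower, 7929 and 5200 were called in all, and 4836 differed between lines. Deviations of same-numbered dark and light libraries correlated at 0.017, 0.024 and 0.139, and library 3 was the one of each group that correlated best with its own number. Without read numbers the counting error of low genes is unknown.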
